A study of Solanum lycopersicum with 6 samples.

Results

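Histones are the proteins that package DNA into nucleosomes, and the genes described as histones in tomato (Solanum lycopersicum) roots are the subject here. They were taken from the deposited table as every gene whose description matches histone H1 to H4 and does not name a histone-modifying enzyme, a chaperone or a kinase. The pattern found 106 of 35768 genes. Of these, 102 are described as histones, with 14 for H1, 33 for H2A, 20 for H2B, 18 for H3 and 17 for H4. The other 4 are described as H2A deubiquitinases, enzymes that act on H2A and are not histones, so they are counted with the members and described apart. H1 is the linker histone and not part of the nucleosome core, so the members are core and linker histones.

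The samples are roots of plants 20 days after germination, all treated with 60 µM aluminium (Al) at pH 4.7. There were 3 libraries of the slszp1 mutant and 3 of wild type (WT), described as biological replicates. Both genotypes received Al and no untreated root was analysed here, so each value below is a difference between genotypes under Al. The labels give neither the slszp1 allele nor the cultivar, and the gene descriptions do not name SZP1, so the mutation was not followed in the libraries.

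In the nucleosome, DNA is wrapped around an octamer of H2A, H2B, H3 and H4, and H1 binds where the DNA enters and leaves. Most histone is made while DNA is copied in S phase, so high transcript levels of the replication-dependent genes mark dividing cells, which in a root sit mainly in the meristem at the tip. Replacement variants of H3 and H2A, and some H1 genes, are also expressed outside S phase. In plants, unlike in animals, the transcripts of replication-dependent histones are polyadenylated. The table does not say which tomato genes encode variants, and no variant name is given to any of them here.

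Deposited values were read as TPM, which scale transcript abundance for length and to a fixed total per library. Column totals were 940694 to 974316, and the depth is unknown because TPM keeps none. Each ± is an SD over n = 3 libraries, and values given in a series follow replicates 1, 2 and 3. A change is the difference of log2(TPM + 1), mutant minus WT, with its standard error (SE), and the added 1 shrinks changes at low levels. The words rose and fell are kept for genes with a limma p, Benjamini-Hochberg adjusted over the 17702 tested genes, under 0.05. To be tested, a gene needed 1 TPM or more in 3 or more libraries; each library had 17050 to 17728 genes at that level. The labels do not say whether a biological replicate was 1 plant or a pool, so the p-values measure the spread between these samples.

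Many of the histone gene models in the table were listed at 0 in these roots. Of the 106 members, 45 were listed at 0 in all 6 libraries, 7 were above 0 but under the expression minimum, and 54 were tested. The models at 0 include 17 H2A genes from Solyc05g014800.1 to Solyc05g025980.2, of which 12 stand in neighbouring rows. Of the 14 H1 models, 8 were at 0. The 7 members under the minimum include an H4 gene, Solyc06g072240.1, which held 2.79 TPM in mutant replicate 1 and 0 in the others. Every tested member reached 1 TPM in at least 1 library of each genotype.

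Histone transcripts took up a small share of each library, and the share was lower in the mutant. The 102 genes summed to 0.781, 0.711 and 0.689% of all TPM in mutant roots against 0.842, 0.991 and 0.785% in WT. In TPM, their sum was 7351, 6819 and 6481 in the mutant and 8115, 9558 and 7651 in WT. The groups did not overlap, but the highest mutant and the lowest WT library lay close together. The mean sum was 18.5% lower in the mutant. RNA came from bulk root tissue, so fewer dividing cells and less histone RNA per cell cannot be told apart.

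The classes differed in how far their sums moved. The H3 sum was 2259, 2408 and 2021 TPM in mutant roots against 2784, 3243 and 2742 TPM in WT, with no overlap and a mean 23.7% lower. The H4 sum was 1344, 1005 and 952 TPM in mutant roots against 1385, 2111 and 1292 TPM in WT. Its mean was 31.1% lower, yet mutant replicate 1 lay above WT replicate 3. The log2 ratio of the H4 sums, -0.54, was -0.28 without WT replicate 2 and -0.71 to -0.44 without any other single library, while that of H3, -0.39, ranged from -0.45 to -0.31. The H2B sum was 1294 ± 94.6 TPM in mutant roots against 1522 ± 159 TPM in WT, and the groups overlapped. The H2A sum was 1368 ± 134 against 1389 ± 70.5 TPM, and the H1 sum 892 ± 171 against 1011 ± 67.97 TPM, both with overlap. A sum should depend less than single-gene values on how reads were divided among near-identical copies of a class. How reads shared by several copies were handled is not stated, so the sums may be affected as well. No test was made of these sums, because the members were chosen with earlier results known.

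**Figure D1:**
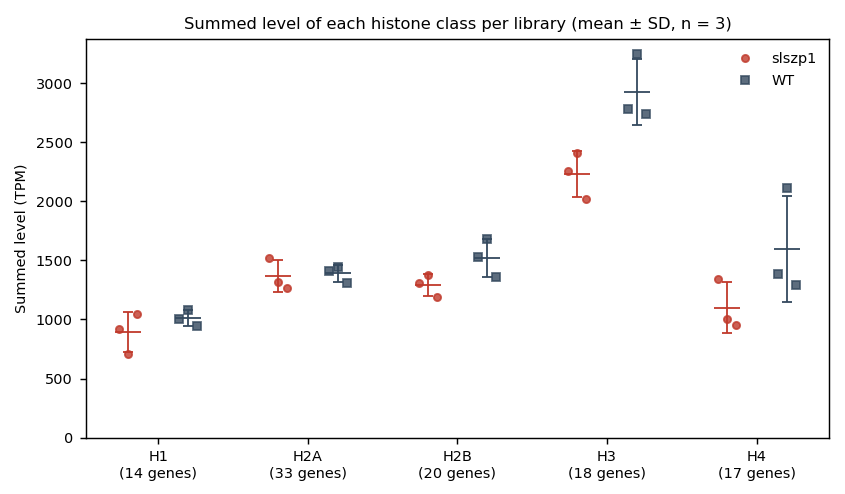
Summed TPM of the genes of each histone class in each library, with points for the 3 slszp1 mutant (circles) and 3 wild type (squares) libraries and bars for mean ± SD. The H3 sums, at 2021 to 2408 TPM in mutant roots against 2742 to 3243 TPM in wild type, do not overlap, while those of the other classes do.

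Single histone genes passed the test about as often as other genes, with an uneven balance. Of the 54 tested members, 2 rose and 8 fell by limma, together 18.5% against 19.2% of all tested genes. The share that fell, 14.8%, stands beside 10.5% of all tested genes, and the share that rose, 3.70%, beside 8.71%. Without the deubiquitinases, 2 of 52 histone genes rose and 7 fell. The direction of the changes was less even than the calls. Of the 52, 47 had a change below 0 (90.4%), against 50.0% of all tested genes, and the median change was -0.44 against -0.0005. All 3 mutant libraries lay below all 3 WT libraries in 15 of the 52 (28.8%, against 20.2% of tested genes) and above them in 2 (3.85%, against 18.2%). Histone genes share libraries, sequence and, in part, reads, so these counts are not independent of each other. Of all 54 tested members, the count that fell was 11, 4 and 4 without mutant replicates 1, 2 and 3. It was 2, 7 and 8 without WT replicates 1, 2 and 3.

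**Figure D2:**
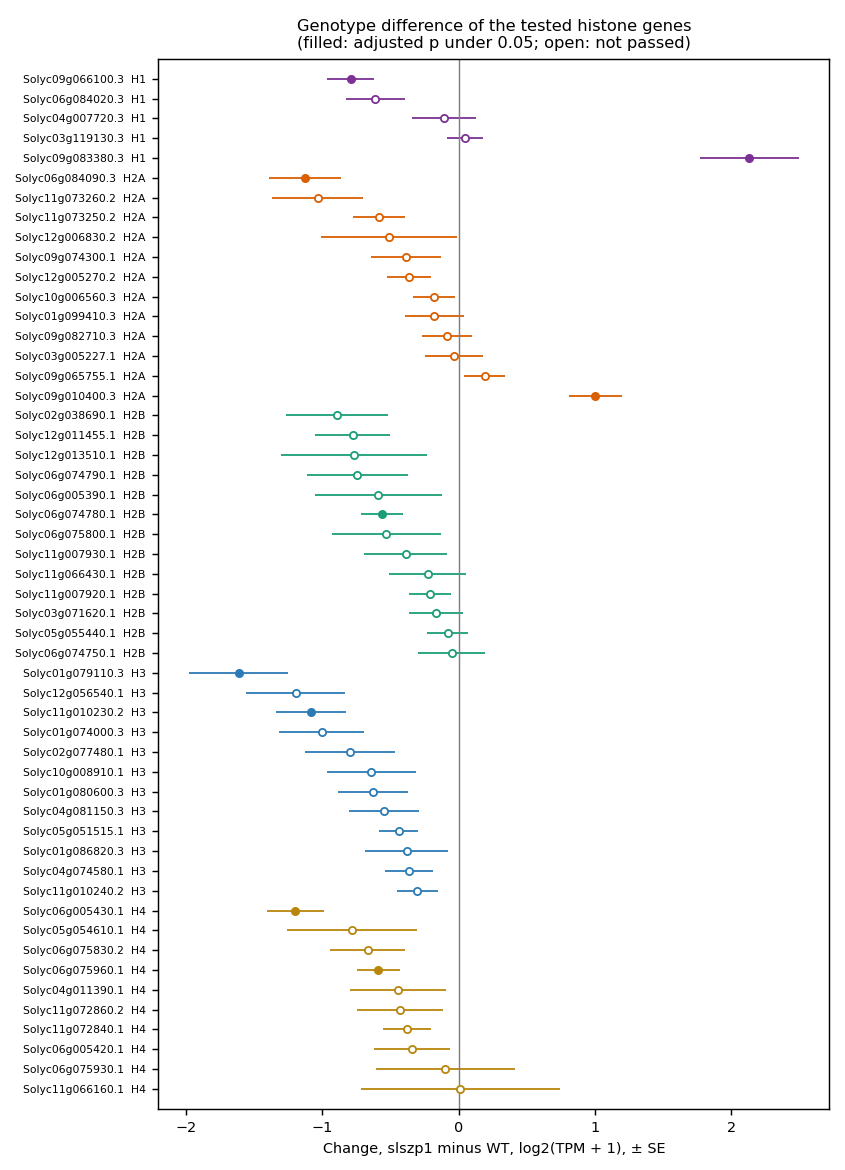
Change (mutant minus wild type, log2(TPM + 1)) with its SE for each of the 52 tested histone genes, ordered within its class. Filled points passed the limma threshold; apart from the 2 filled points on the right, an H1 and an H2A gene, 3 genes lie above 0, at 0.01, 0.05 and 0.19.

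The largest change among the tested histone genes was the rise of a linker histone. Solyc09g083380.3, described as H1 from a maize protein and marked in the table as less than a full match, held 226.92, 209.71 and 311.95 TPM in mutant roots against 49.18, 98.12 and 34.83 TPM in WT. Every mutant library lay above the highest WT library. The mean was 4.11-fold higher, with a change of 2.13 (SE 0.36) and a limma adjusted p of 0.00712. The 2 most abundant H1 genes lay lower in the mutant, and 1 of them passed. Solyc09g066100.3, whose description cites a tomato H1 protein, held 209.44, 155.57 and 221.91 TPM in mutant roots against 336.06, 338.85 and 331.48 TPM in WT. It fell by 0.79 on the log2 scale (SE 0.17; limma adjusted p = 0.0143; 0.0506 without mutant replicate 2). Its WT libraries were nearly level, and its mutant libraries varied more.

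The most abundant H1 gene, Solyc06g084020.3, did not pass. It held 379.92, 243.63 and 408.65 TPM in mutant roots against 516.94, 550.95 and 476.07 TPM in WT, without overlap, and its change was -0.61 (SE 0.22; limma adjusted p = 0.0842). Solyc03g119130.3 stood at 98.7 ± 3.41 against 95.7 ± 6.77 TPM, with overlap. Solyc04g007720.3, like Solyc03g119130.3 a low-quality or partly matched model, stood at 4.11 ± 0.555 against 4.60 ± 1.49 TPM.

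The makeup of the transcripts described as H1 thus differed between genotypes whose H1 sums overlapped. Both points depend on Solyc09g083380.3 being an H1 gene, and its description is less than a full match. Without low-quality or partly matched models, the log2 ratio of the H1 sums was -0.66 in place of -0.18. Solyc09g083380.3 made up 24.7, 29.5 and 29.7% of the H1 sum in the mutant and 4.90, 9.06 and 3.67% in WT. Solyc09g066100.3 made up 21.1 to 22.8% in the mutant and 31.3 to 35.0% in WT, and Solyc06g084020.3 34.3 to 41.4% and 50.2 to 51.5%. None of the 3 ranges overlapped. Shares within a class sum to a fixed total, so a rise of one gene lowers the shares of the others. In TPM, the H1 genes other than Solyc09g083380.3 summed to 643 ± 126 in the mutant and 951 ± 36.0 in WT, without overlap. That grouping was made after the values were seen.

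H2A followed a similar pattern, with a rise at one abundant gene. A change below 0 was seen at 10 of 12 tested genes (83.3%, against 50.0% of all tested genes). Solyc09g010400.3 held 359.31, 248.91 and 351.8 TPM in mutant roots against 144, 187.47 and 143.02 TPM in WT. All mutant libraries lay above all WT libraries, and the mean was 2.02-fold higher, with a change of 1.0 (SE 0.20) and a limma adjusted p of 0.00905. Its share of the H2A sum was 23.6, 18.9 and 27.8% in the mutant and 10.2, 13.0 and 10.9% in WT. The only H2A gene that fell (8.33% of those tested, against 10.5% of all tested genes), Solyc06g084090.3, is much rarer. It held 8.9, 7.26 and 4.47 TPM in mutant roots against 15.53, 12.26 and 20.29 TPM in WT, a change of -1.13 (SE 0.27; limma adjusted p = 0.01998). It no longer passed when mutant replicate 3 (0.0518), WT replicate 1 (0.0579) or WT replicate 3 (0.0646) was left out.

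**Figure D3:**
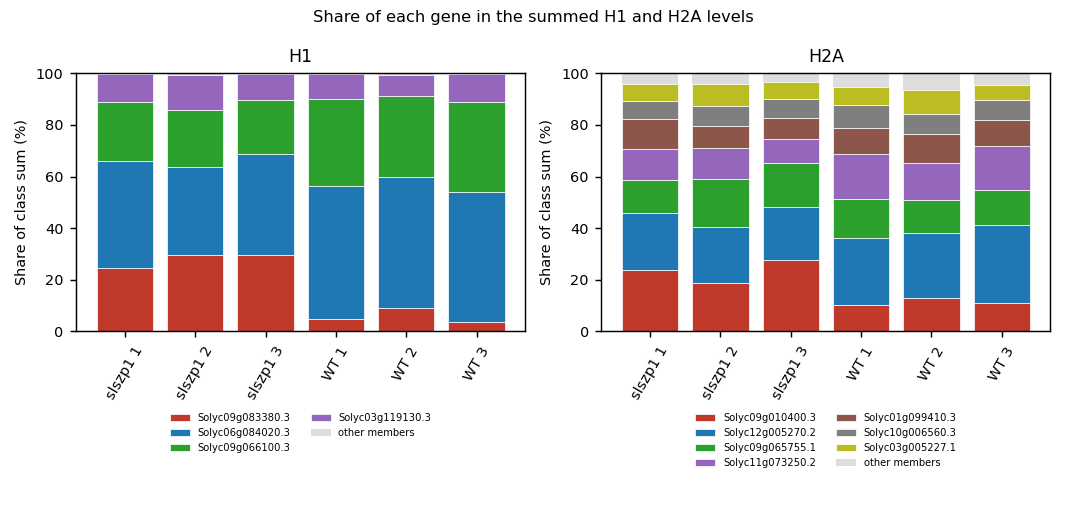
Share (%) of each gene in the summed H1 (left) and H2A (right) TPM of each library, with genes averaging under 3% pooled in grey. The red segments, Solyc09g083380.3 at 24.7 to 29.7% in the mutant against 3.67 to 9.06% in wild type and Solyc09g010400.3 at 18.9 to 27.8% against 10.2 to 13.0%, are wider in every mutant library.

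The other 10 tested H2A genes did not pass. The most abundant over all libraries, Solyc12g005270.2, held 338.78, 283.77 and 256.26 TPM in mutant roots against 369.62, 361.11 and 395.81 TPM in WT, without overlap (change -0.37, SE 0.16; limma adjusted p = 0.154). Solyc11g073250.2 was also without overlap, at 151 ± 31.5 against 224 ± 21.6 TPM (limma adjusted p = 0.0631). Solyc09g065755.1 leaned the other way, at 220 ± 24.6 against 192 ± 16.3 TPM, and its groups overlapped. The remaining 7 had changes of -1.03 to -0.03, and all of them overlapped between genotypes. Without Solyc09g010400.3, a grouping made after the values were seen, the H2A genes summed to 1048 ± 124 TPM in mutant roots against 1231 ± 56.2 TPM in WT.

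H2B had the most tested genes of any class, and 1 of its 13 tested members fell (7.69%, against 10.5% of all tested genes). Solyc06g074780.1 held 70.2, 65.08 and 63.33 TPM in mutant roots against 94.48, 115.13 and 86.86 TPM in WT, without overlap. Its change was -0.56 (SE 0.15; limma adjusted p = 0.0337), and the adjusted p was 0.0270 to 0.106 over the alternatives. Leaving out a library other than WT replicate 3 ended the call. All 13 tested H2B genes had a change below 0 (against 50.0% of all tested genes), from -0.89 to -0.05. A single gene, Solyc05g055440.1, supplied 42.0 to 57.2% of the H2B sum. It stood at 648.7, 736.68 and 681.45 TPM in mutant roots against 753.68, 705.35 and 726.15 TPM in WT, with overlap and a change of -0.08 (SE 0.15). The next, Solyc11g007920.1, held 276 ± 22.1 against 320 ± 29.0 TPM, and Solyc06g075800.1 held 100.1 ± 36.3 against 147 ± 69.9 TPM. Both overlapped between genotypes.

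All 12 tested H3 genes had a change below 0 (against 50.0% of all tested genes), and 2 of them fell (16.7%, against 10.5%). Solyc01g079110.3, which cites a wild potato protein, held 19.08, 9.77 and 6.12 TPM in mutant roots against 41.25, 36.23 and 27.15 TPM in WT. On the log2(TPM + 1) scale this was the largest fall among the tested histone genes, -1.62 (SE 0.36; limma adjusted p = 0.0203), and the mean was 2.99-fold lower. The adjusted p was 0.0737 without mutant replicate 2 and 0.0715 without WT replicate 1. Solyc11g010230.2 held 1.08, 0.78 and 0.24 TPM in mutant roots against 2.28, 3.14 and 2.21 TPM in WT, a change of -1.08 (SE 0.26; limma adjusted p = 0.0203). Only 1 of its mutant libraries reached 1 TPM, so the value is uncertain, and its call was lost without mutant replicate 3 (0.0519) or WT replicate 1 (0.0518). It stands next in the table to Solyc11g010240.2, a much more abundant H3 gene that cites the same protein, and reads can be divided between such copies.

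H3 held the most abundant histone gene of these roots. Solyc04g074580.1 reached 1440.84, 1644.04 and 1330.24 TPM in mutant roots against 1721.63, 2138.3 and 1822.17 TPM in WT, and supplied 61.8 to 68.3% of the H3 sum. Its groups did not overlap, but it did not pass, with a change of -0.36 (SE 0.18; limma adjusted p = 0.201). Solyc11g010240.2 followed at 428 ± 15.0 against 530 ± 41.4 TPM and Solyc05g051515.1 at 193 ± 17.4 against 263 ± 15.5 TPM. Neither overlapped between genotypes, and their limma adjusted p were 0.199 and 0.0693.

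The H3 genes fall into sets by the protein their description cites, a feature that the choice of members did not use. This split was not planned beforehand. The 5 that cite one maize protein, K7VSQ3_MAIZE, include the 3 most abundant H3 genes and were all tested. Together they summed to 2100 ± 190.3 TPM in mutant roots against 2698 ± 236 TPM in WT, without overlap. The other 13 summed to 129 ± 58.1 against 225 ± 49.2 TPM, with overlap, and 7 of them were tested. In all 7, mutant replicate 1 was the highest mutant library, and the highest mutant value was 2.11 to 5.95 times the lowest. Among the 5 with the maize protein, mutant replicate 1 was highest in 1. Their highest mutant value was 1.06 to 4.50 times the lowest, a range that overlaps that of the 7.

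H4 genes are the least diverse in their annotation. Of 17 models, 14 cite the same Arabidopsis protein, among them all 10 that were tested, so division of reads among copies could affect each of them. Of the 10 tested H4 genes, 2 fell (20.0%, against 10.5% of all tested genes). Solyc06g005430.1 fell, with 61.54, 37.2 and 58.5 TPM in mutant roots against 109.51, 136.98 and 111.79 TPM in WT. The mean was 2.28-fold lower, with a change of -1.20 (SE 0.21; limma adjusted p = 0.00543). Its neighbour in the table, Solyc06g005420.1, is the most abundant H4 gene and did not pass, at 498.13, 322.33 and 354.17 TPM in mutant roots against 383.47, 727.54 and 415.04 TPM in WT. Solyc06g075960.1 fell as well, with 265.64, 255.73 and 248.52 TPM against 345.43, 449.92 and 371.22 TPM, a change of -0.59 (SE 0.16; limma adjusted p = 0.0326). The adjusted p of Solyc06g075960.1 was 0.0261 to 0.0968 over the alternatives, and leaving out a library other than WT replicate 2 ended the call. Solyc06g075830.2 did not pass, at 187 ± 49.9 against 302 ± 105 TPM, with overlap. The remaining 6 tested H4 genes had changes of -0.78 to 0.01, and all of them overlapped. The one H4 gene with a change above 0, Solyc11g066160.1, stood at 9.66 ± 4.79 against 11.4 ± 9.61 TPM, so its mean TPM was lower in the mutant.

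Of the H2A deubiquitinase genes, 2 of 4 were tested. Solyc08g013980.3 held 1.48, 1.96 and 2.34 TPM in mutant roots against 6.82, 4.84 and 3.73 TPM in WT, and fell by 1.05 on the log2 scale (SE 0.25; limma adjusted p = 0.0199). Leaving out mutant replicate 1 (0.0718), mutant replicate 2 (0.0549) or WT replicate 1 (0.0746) ended that call. Solyc09g020000.3 did not pass, at 41.0 ± 1.71 against 52.9 ± 5.41 TPM, without overlap.

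Histone genes varied together among libraries of the same genotype. WT replicate 2 was the highest WT library for 38 of 52 tested histone genes (73.1%) and for 33.6% of all tested genes, and WT replicate 3 was the lowest for 38. In the mutant, replicate 1 was highest for 31 (59.6%, against 19.3% of all tested genes). Mutant replicate 3 was lowest for 32 (61.5%, against 22.0%), although it was the highest mutant library for 56.5% of all tested genes. H1 departed from this order within the mutant, with mutant replicate 3 highest for 4 of 5 genes. Within WT it did not, with replicate 2 highest and replicate 3 lowest for 4 of 5 each. WT replicate 2 also had the highest WT sum of all histones, 9558 TPM, so leaving it out could not make the genotypes overlap. Without any single library, the log2 ratio of the mean sums, mutant over WT, stayed between -0.36 and -0.20, with -0.29 for all libraries.

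**Figure D4:**
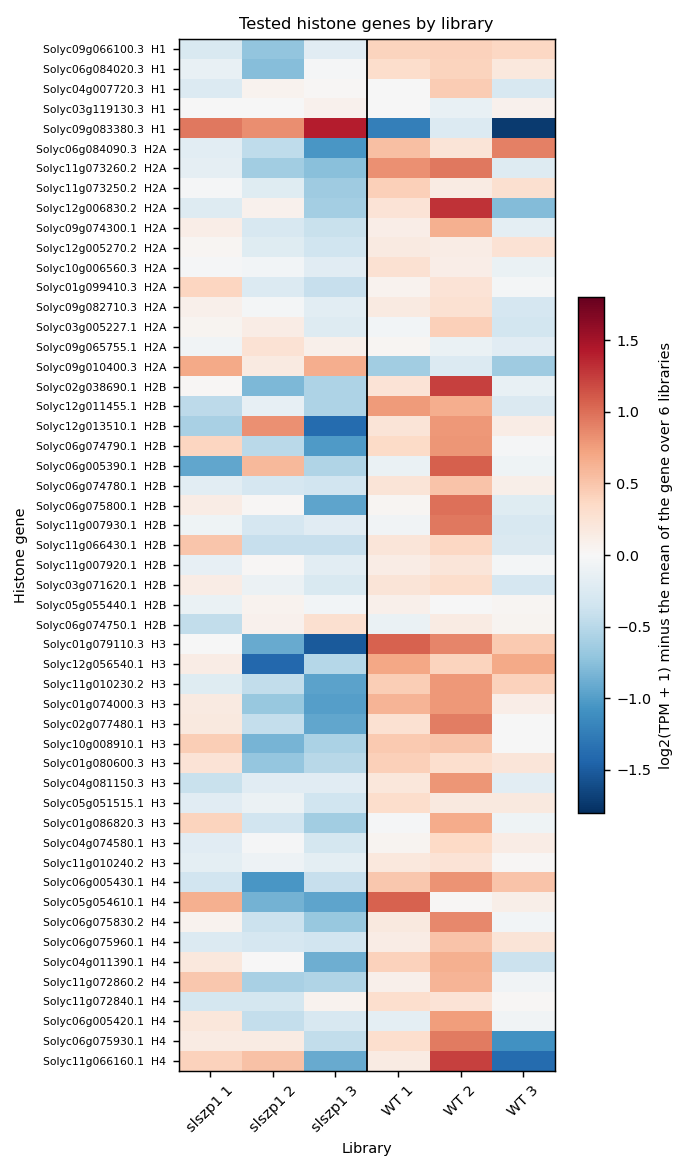
Level of each of the 52 tested histone genes in each library, as log2(TPM + 1) minus the mean of the gene over the 6 libraries (red above, blue below). Within wild type, replicate 2 is highest for 38 of 52 genes; within the mutant, replicate 1 is highest for 31; Solyc09g083380.3 and Solyc09g010400.3 are higher in every mutant library than in any wild type library.

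Other genes that mark dividing cells were mostly low in these roots. Among those tested, only the B-type cyclins had mostly changes below 0. Genes of the minichromosome maintenance helicase, which unwinds DNA at replication origins, summed to 3.14 to 6.90 TPM in mutant roots against 4.33 to 7.09 TPM in WT over 13 models, of which 2 were tested and 0 changed. At 0.05 unadjusted, 0 of those 2 passed either. Proliferating cell nuclear antigen, the sliding clamp of DNA polymerase, had 2 models. Solyc06g076660.3 lay under the expression minimum at 0.54, 0.6 and 0.64 TPM in mutant roots against 1.56, 1.16 and 0.98 TPM in WT. The tested model, Solyc02g082610.1, was erratic at 23.3, 8.07 and 0 TPM in mutant roots against 0, 40.21 and 0 TPM in WT, and did not pass. Of 8 tested B-type cyclin genes, which drive entry into mitosis, 3 passed as lower (37.5%, against 10.5% of all tested genes) and 0 as higher (against 8.71%), and 7 had a change below 0 (against 50.0%). These counts support nothing about the cyclins, because 1 of the 3 had no mutant library at 1 TPM and 2 had 1, so they entered the test mainly through the genotype where they were high. The cyclin B2 gene Solyc02g082820.3, which entered through WT alone, held 0.38, 0.51 and 0.45 TPM in mutant roots against 1.58, 1.38 and 1.83 TPM in WT. Its limma adjusted p of 0.0214 became 0.0776 without mutant replicate 1, 0.0581 without mutant replicate 2, 0.0681 without WT replicate 1 and 0.0733 without WT replicate 3. Solyc06g073610.3, Solyc01g009040.3 and Solyc04g082430.3 reached 1 TPM in every library and lay lower in the mutant without overlap. Their changes were -0.90, -0.67 and -0.29, and none passed (limma adjusted p = 0.0551, 0.112 and 0.319). Solyc07g066660.3, also at 1 TPM or more in every library, overlapped between genotypes, with a change of -0.02. The cyclin B gene with a change above 0, Solyc00g018970.1, stood at 52.78, 43.99 and 93 TPM in mutant roots against 0, 45.49 and 0 TPM in WT and did not pass. With it, the 14 cyclin B models summed to 59.3 to 117 TPM in the mutant and 28.4 to 79.1 TPM in WT. Solyc00g018970.1 averaged 63.3 TPM of a mean sum of 83.1 TPM in the mutant, and 15.2 of 47.8 TPM in WT. The higher mean sum in the mutant thus came from this erratic model and does not describe the other cyclin B genes. Whether the histone difference follows the number of dividing cells was not tested.

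In the wider list of DNA replication genes, 2 of 43 tested members rose (4.65%, against 8.71% of all tested genes) and 0 fell (against 10.5%), and the median change was 0.17. At an unadjusted limma p under 0.05, 7 were higher and 1 lower, where 15.2% and 17.3% of all tested genes were. Without WT replicate 2, 4 rose. Both that rose are described as catalytic subunits of DNA polymerase epsilon, which copies the leading strand. These names rest on the descriptions alone and were not tested. Both genes stood far above the 2 tested minichromosome maintenance genes, which averaged 2.45 and 1.81 TPM over all libraries. Solyc04g080540.2 held 825.17, 935.53 and 1138.93 TPM in mutant roots against 162.23, 177.35 and 158.02 TPM in WT, a change of 2.52 (SE 0.17; limma adjusted p = 5.65e-05). Solyc06g024380.1 held 181.77, 116.34 and 133.42 TPM against 48.71, 48.4 and 23.85 TPM (limma adjusted p = 0.00454), and its description is marked as less than a full match. These 2 genes held most of the list's sum in the mutant, and the other 102 models summed to 431 ± 16.7 TPM in mutant roots against 389 ± 41.0 TPM in WT.

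In the mitosis and cytokinesis list, which includes kinesins with other roles, 2 of 91 tested members rose (2.20%, against 8.71% of all tested genes) and 10 fell (11.0%, against 10.5%), with a median change of -0.16. The share that fell was thus near that of all genes, and 2 of the 10 had no mutant library at 1 TPM. The count that fell was 1 to 7 without single libraries, being 5, 1, 2, 5 and 2 without mutant replicates 1 and 2 and WT replicates 1, 2 and 3. The count that rose was 5 without WT replicate 2 and 1 without mutant replicate 1 or 2 or WT replicate 1 or 3. A TPX2 family gene, Solyc05g008090.3, named for a spindle assembly factor, fell from 13.4 ± 2.52 TPM in WT to 6.48 ± 0.926 TPM. A kinesin-like gene, Solyc02g084390.3, of the motor proteins that move along microtubules, rose from 4.53 ± 1.01 to 10.9 ± 3.01 TPM. Their limma adjusted p were 0.0113 and 0.0135. Among inhibitors of cyclin-dependent kinases, 3 of 12 tested members passed as higher (25%, against 8.71% of all tested genes) and 2 as lower (16.7%, against 10.5%). One in each direction entered the test through a single genotype. The count of higher genes was 1 without mutant replicate 3, WT replicate 1 or WT replicate 3. Solyc02g067810.1 fell from 22.9 ± 6.15 to 5.83 ± 1.22 TPM (limma adjusted p = 0.00120). Solyc11g066000.1 stood at 0.417 ± 0.0902 TPM in mutant roots against 4.85 ± 1.19 TPM in WT and reached 1 TPM in WT alone. Solyc03g044480.3 stood at 2.99 ± 1.21 TPM in mutant roots against 0.600 ± 0.171 TPM in WT and reached 1 TPM in the mutant alone. Both had to differ to be tested, so their calls carry no weight.

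Histone chaperones, which carry histones to and from DNA, rose at 3 of 17 tested members (17.6%, against 8.71% of all tested genes) and fell at 1 (5.88%, against 10.5%). The gene described as subunit A of chromatin assembly factor 1, Solyc11g008670.2, part of a complex that deposits H3 and H4 on newly copied DNA, held 7.93, 9.27 and 8.97 TPM in mutant roots against 4.34, 4.17 and 4.5 TPM in WT. Its change was 0.86 (SE 0.17; limma adjusted p = 0.00893), opposite in sign to most H3 and H4 genes. Solyc05g018810.3, a nucleosome assembly protein gene, whose family binds H2A and H2B, rose from 59.7 ± 8.50 to 105 ± 22.8 TPM (limma adjusted p = 0.0216, lost without mutant replicate 2 or 3 or WT replicate 1 or 3). Solyc02g021350.3 of the same family fell from 3.10 ± 0.466 to 1.27 ± 0.170 TPM (limma adjusted p = 0.0205, lost without mutant replicate 1 or 2 or WT replicate 1 or 3). Without mutant replicate 2 or 3 or WT replicate 1 or 3, 1 chaperone gene rose, and without mutant replicate 1 or 2 or WT replicate 1 or 3, 0 fell.

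Among histone modifying enzymes, 2 of 74 tested members rose (2.70%, against 8.71% of all tested genes) and 3 fell (4.05%, against 10.5%). Solyc01g111300.3, described as a SUVR5 lysine methyltransferase and marked as less than a full match, rose from 192 ± 33.0 to 495 ± 93.2 TPM, and the low-quality ATX5 model Solyc06g074550.2 from 3.38 ± 0.652 to 9.48 ± 1.94 TPM. A gene described as histone deacetylase-like from a match to AT2G25625.2, Solyc08g067630.3, fell from 92.5 ± 24.1 to 27.6 ± 5.26 TPM. Their limma adjusted p were 0.00219, 0.00533 and 0.00139. Whether Solyc08g067630.3 encodes a histone deacetylase was not tested. Without WT replicate 2, 5 members rose, and without mutant replicate 1 or WT replicate 1, 1 fell.

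**Figure D5:**
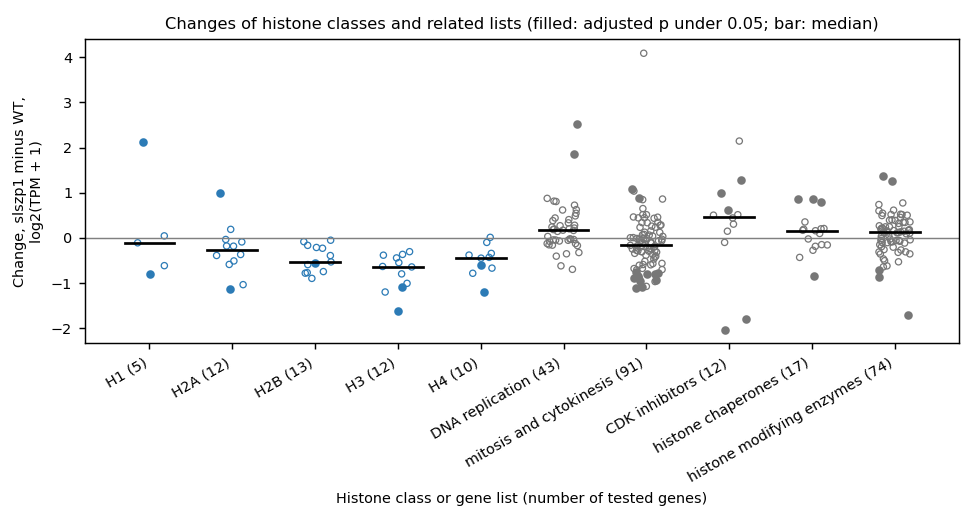
Change (mutant minus wild type, log2(TPM + 1)) of each tested gene in the histone classes (blue) and in related lists (grey), with the median as a bar and filled points for genes that passed the limma threshold. The medians of H1, H2A, H2B, H3 and H4 lie at -0.11, -0.27, -0.53, -0.64 and -0.44 and that of mitosis at -0.16, while those of DNA replication, CDK inhibitors, histone chaperones and histone modifying enzymes lie above 0, at 0.17, 0.47, 0.16 and 0.12.

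Markers of root zones and of other tissue were checked beside these results. Of the stem cell niche list, 0 of 8 tested genes changed (1 higher at an unadjusted limma p under 0.05), and the summed level was 126 to 132 TPM in mutant roots against 112 to 149 TPM in WT. SCARECROW (Solyc07g063940.2), a factor of the endodermis and the stem cell niche, was at 35.0 ± 11.1 against 42.7 ± 18.8 TPM, and SCL3 (Solyc12g099900.1) at 33.9 ± 1.72 against 31.0 ± 4.68 TPM. The 2 root cap genes summed to 1.69 to 6.36 TPM against 3.17 to 5.34 TPM, with 0 changed by limma and 1 lower unadjusted. They were Solyc07g063490.3, at 2.56 ± 2.04 against 2.17 ± 0.832 TPM, and Solyc08g066590.3, at 0.903 ± 0.491 against 1.96 ± 0.632 TPM. Root hair genes, taken by description alone, summed to 136 to 154 TPM against 126 to 171 TPM. Most of that sum came from Solyc03g121590.3, described as a ROOT HAIR DEFECTIVE 3 homolog, at 104 ± 8.0 against 106 ± 23.1 TPM. The low-quality model Solyc04g025730.1 stood at 38.2 ± 3.61 against 38.6 ± 0.695 TPM. Casparian strip genes of the endodermis summed to 37.0 to 39.5 TPM against 32.1 to 37.8 TPM. Solyc10g077055.1 stood at 29.8 ± 1.26 against 28.6 ± 2.58 TPM and Solyc12g089325.1 at 8.06 ± 0.699 against 5.59 ± 2.25 TPM. Both Casparian strip descriptions are marked as less than a full match. The root hair and Casparian strip lists are thus a weak measure of root zones. Of the tested root hair and Casparian strip genes, 0 changed by limma and 0 passed unadjusted. The xylem marker was listed at 0 in all libraries.

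Chlorophyll-binding and RuBisCO small chain genes, markers of shoot tissue, summed to 78.7 to 89.4 TPM in the mutant and 82.7 to 97.5 TPM in WT over 46 models. Of 13 tested, 2 chlorophyll-binding genes passed as lower (15.4%, against 10.5% of all tested genes). Solyc12g011450.2 stood at 0.67, 0.05 and 0 TPM in mutant roots against 7.92, 9.88 and 2.2 TPM in WT, so it entered the test through WT alone and its call carries no weight. Solyc04g082930.2, with 1 mutant library at 1 TPM, stood at 0.767 ± 0.294 TPM in mutant roots against 1.98 ± 0.101 TPM in WT (limma adjusted p = 0.0393), a call that ended when any library but mutant replicate 3 was left out. The part of root zones or of other tissue in the histone difference was not tested.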

How the data were processed

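RNA from 6 root libraries was measured by RNA sequencing. The authors deposited 1 table of 35768 genes with 6 library columns and 0 further sample columns. Its header gives no unit. The deposited values were read as TPM, an inference from column sums that lie close to a common total. Per the submitters' processing notes, TopHat2, HISAT2, StringTie and Cufflinks were used, with neither version nor role stated; for the genome build, the sources used here give nothing. Identifiers had 0 matches in the RefSeq gene table, so all names come from the deposited table and no sequence is shown. Sequencing depth cannot be read from TPM, so counting intervals were left out.

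Groups follow the sample titles. The 17702 genes reaching 1 TPM in at least 3 of 6 libraries were fitted together as log2(TPM + 1) with limma 3.58.1 (trend and robust options, statmod 1.5.0) under R 4.3.3; p-values were Benjamini-Hochberg adjusted over these genes and called under 0.05. Python 3.11.15 made the sums and counts. The fit was tested on simulated data. Members and lists were chosen with earlier results of these data known, and no list or sum was tested. Genes named are every changed member, the 3 most abundant tested genes of each class, and in each other list up to 3 changed genes with the smallest p or, with none changed, the 2 most abundant. Solyc03g119130.3, Solyc11g073250.2, Solyc04g007720.3, Solyc11g066160.1, Solyc06g072240.1, Solyc09g020000.3, Solyc06g076660.3, Solyc02g082610.1 and Solyc00g018970.1 were named after their values were seen. The same holds for the cyclin B genes Solyc06g073610.3, Solyc01g009040.3, Solyc04g082430.3 and Solyc07g066660.3. Alternatives were a pseudocount of 0.1, no filter, quantile normalization, median centring, a model term for replicate number, a minimum change of 2-fold, no low-quality or partly matched models, limma without trend and robust options, and each library left out. Counting without the deubiquitinases and sums over tested members alone were added after the data were seen. A count-based alternative, DESeq2, was not run, since the table holds no counts.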

Additional observations from a re-analysis of the deposited data

How the results depend on the processing

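Of the 10 called members, Solyc09g083380.3, Solyc09g010400.3 and Solyc06g005430.1 kept their call in every fit that tested them; Solyc09g083380.3 is not tested without partly matched models, where 1 member rose. Of the members, 5 fell with the replicate block and 5 with a change of at least 2-fold; 2 to 11 fell and 2 rose without single libraries. Same-numbered libraries gave correlations of deviations of -0.05, -0.07 and 0.11, and not every library correlated best with its own number. Deviations from the mean of only 3 libraries constrain each other, so whether the numbers pair libraries cannot be told from these values. With quantile normalization 4 DNA replication, 4 mitosis and 5 histone modifying genes rose. With median centring 1 mitosis gene and 6 histone modifying genes rose. Without low-quality or partly matched models 1 gene rose in each of the DNA replication, mitosis and modifying lists and 1 CDK inhibitor fell, and the log2 ratio of the H1 sums was -0.66 in place of -0.18. Without a filter 1 mitosis gene rose. With the replicate block 2 mitosis genes and 0 chaperones fell. At 2-fold, 1 mitosis gene and 1 CDK inhibitor rose, 2 mitosis genes and 1 modifying gene fell, and 0 chaperones rose or fell.

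Without single libraries, 2 to 4 DNA replication, 1 to 5 mitosis, 1 to 2 CDK inhibitor, 1 to 2 chaperone and 2 to 5 modifying genes rose, and 1 to 7 mitosis, 0 to 1 chaperone and 1 to 3 modifying genes fell. Changes near 0 turned sign for markers that did not pass. Without single libraries they ranged from -0.432 to 0.0813 for SCARECROW (Solyc07g063940.2), -0.39 to 0.36 for the root cap gene Solyc07g063490.3, -0.17 to 0.15 for the root hair gene Solyc03g121590.3, -0.0931 to 0.0220 for Solyc04g025730.1 and -0.0130 to 0.11 for the Casparian strip gene Solyc10g077055.1. Solyc03g121590.3 was at 0.00588 with quantile normalization and 0.00108 with median centring. Over 45 named genes and 574 alternative values, 511 kept direction and side of the threshold, 50 lost the call and 13 turned sign. Quantile normalization and median centring moved the median change of all genes by at most 0.02. The log2 ratio of the H2A sums, -0.02, ranged from -0.11 to 0.03 without single libraries. DESeq2 was not run, as the table holds TPM. TPM keeps no depth, so precision at low levels is unknown.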
